A study of Mus musculus with 8 samples.

Results

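Axons hold their sodium and potassium channels in place with a small set of scaffold and adhesion proteins, and 10 of the genes that encode them are described here in the spinal dorsal horn of mice without miR-96. They were chosen by symbol (Ank2, Ank3, Sptbn1, Sptbn4, Nfasc, Nrcam, Cntn1, Cntn2, Cntnap1 and Cntnap2) from the 49585 genes measured, and each symbol matched 1 gene. The series compared miR-96 knock-out with wild-type mice, all adult and of strain C57BL/6J, by polyA RNA-seq of whole dorsal horn from lumbar segments 4 to 6, and its title concerns repression of voltage-gated sodium channels by miR-96. There were 4 knock-out and 4 wild-type libraries, and the design text counts 4 mice of each genotype. The labels do not say how the deletion was made, in which cells it acts, or the sex of the mice. Values are FPKM (fragments scaled to transcript length and to the mapped fragments of the library) as the authors deposited them. Levels are thus already per length, but the libraries still differed in a trend with transcript length, described below. That limits comparison of levels between genes.

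At the axon initial segment and at nodes of Ranvier, ankyrin-G (Ank3) sits under the membrane, ties sodium channels and the adhesion molecules neurofascin (Nfasc) and NrCAM (Nrcam) to beta-IV spectrin (Sptbn4), and so sets where action potentials start and are renewed. Ankyrin-B (Ank2) and beta-II spectrin (Sptbn1) line the rest of the axon. On either side of the node, Caspr (Cntnap1) and contactin-1 (Cntn1) on the axon join a glial form of neurofascin to make the paranodal junction, and beyond it Caspr2 (Cntnap2) and contactin-2 (Cntn2, also called TAG-1) gather Kv1 potassium channels at the juxtaparanode.

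The series concerns a microRNA, so its sequence and the matches to it in these genes come first. The mature strand miR-96-5p is given as RefSeq lists it (GRCm38.p6, chromosome 6, 30169506 to 30169528, minus strand), with the seed, bases 2 to 8, in capitals. Below it stand the only matches to the seed found in the longest annotated 3′ untranslated region of any of the 10 genes, with 8 bases on each side and the match in capitals. The search was for GTGCCAA (pairing with bases 2 to 8) and TGCCAAA (pairing with bases 2 to 7, followed by A), which overlap where both are present, on the transcribed strand.
miR-96-5p: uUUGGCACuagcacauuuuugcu
Nrcam site: taagctctGTGCCAAtgtctaat
Cntn1 site: acatctttTGCCAAAtgcatgcc
The Nrcam match lies on chromosome 12 (44598601 to 44598607, plus strand, GRCm38), starting at base 14 after the stop codon in a region of 2173 nt. The Cntn1 match lies on chromosome 15 (92341468 to 92341474, plus strand), at base 1879 of 2378. Of the 10 genes 2 held a match, against 22.2% of 13074 tested protein-coding genes with such a region of at least 50 nt. The other 8, among them both ankyrins and both spectrins, held neither form in that window. A match is a string of letters and was not tested as a site.

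Marker genes were read first beside the tissue label. All 10 dorsal horn markers (among them Lmx1b, Tlx3, Pax2, Slc17a6 and Slc32a1) passed the filter used for testing, a mean of at least 1 FPKM over the 8 libraries, with summed levels of 422 to 474 FPKM in knock-out and 428 to 523 in wild type. The same filter was passed by 6 of 7 motor and cholinergic markers, so passing it cannot by itself mark the tissue as dorsal horn. Summed neuronal markers ran from 2249 to 2730 FPKM in knock-out and 2495 to 2744 in wild type. The 5 markers of sensory ganglion neurons stayed under the filter. The targeted gene Mir96 was listed at 0 in every library, which checks nothing, since libraries of this kind miss mature microRNAs. Wild type replicate 1 stood apart. Its ribosomal protein genes summed to 39240 FPKM, against 16960 to 20970 FPKM in knock-out and 17030 to 22180 in the remaining wild type, and its mature oligodendrocyte markers to 15980 FPKM, against 10710 to 11830 in knock-out and down to 9978 in wild type. Fold changes of members, related genes and marker lists are therefore given with and without it.

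All 10 anchoring genes were well expressed. Their means over the 8 libraries ran from 25.4 FPKM for Nrcam to 253 FPKM for Ank2, between the 64.7 and the 97.5 percentile of tested protein-coding genes. By level the order was Ank2, Nfasc (176 FPKM), Sptbn1 (147 FPKM), Ank3 (133 FPKM), then Cntnap1 and Cntn2 (118 FPKM each), Cntn1 (72.8 FPKM), Sptbn4 (62.7 FPKM), Cntnap2 (47.5 FPKM) and Nrcam. The steps from Cntn2 to Cntn1, from Sptbn4 to Cntnap2 and from Cntnap2 to Nrcam were clear in both genotypes, with ranges that did not overlap. Those from Ank2 to Nfasc and from Nfasc to Sptbn1 were clear in knock-out but not in wild type. Sptbn1, Ank3, Cntnap1 and Cntn2 overlapped one with the next in both genotypes, as did Cntn1 and Sptbn4, although Cntn1 exceeded Sptbn4 in each of the 8 libraries. Ank3 ranked 4 in knock-out and 6 in wild type among the 10, but its wild-type mean of 111.5 FPKM lay close to Cntnap1 (111.6) and Cntn2 (113.7). Without wild type replicate 1 these wild-type means were 123.3 FPKM for Ank3, 123.8 for Cntnap1 and 114.1 for Cntn2.

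The main question here was whether these transcripts differ between genotypes. Every one of the 10 had a higher mean in knock-out, as did 53.1% of the 15061 genes tested, by between 0.10 and 0.48 on the log2 scale, with a median of 0.22 against 0.014 over all genes tested. None passed Benjamini-Hochberg adjusted p under 0.05 in limma, nor did any gene tested (0%). At unadjusted p under 0.05 there were 2 of the 10, Ank2 and Ank3, both higher in knock-out, against 5.52% of genes tested in either direction and 3.69% higher in knock-out. These counts moved with the libraries used: 2 of the 10 without wild type replicate 1 (3.74% of genes tested), 6 without wild type replicate 4 (20.9%), 0 without knock-out replicate 2 (2.34%) and 1 with the length trend described below removed (4.61%). With estimated library weights 4 of the 10 passed the adjusted threshold, against 10.8% of genes tested, and 7 had unadjusted p under 0.05, against 33.3%. The knock-out libraries all exceeded the wild-type libraries in 1 gene, Ank3, against 1.91% of genes tested, and in 6 others exactly 3 of the 4 knock-out libraries did, against 6.77% of genes tested. In bulk tissue, fewer cells of a type and less RNA per cell cannot be told apart. Fold changes below are differences of log2(FPKM + 1), knock-out minus wild type, each with its limma standard error (SE), and mean ± SD are over 4 libraries each.

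**Figure D1:**
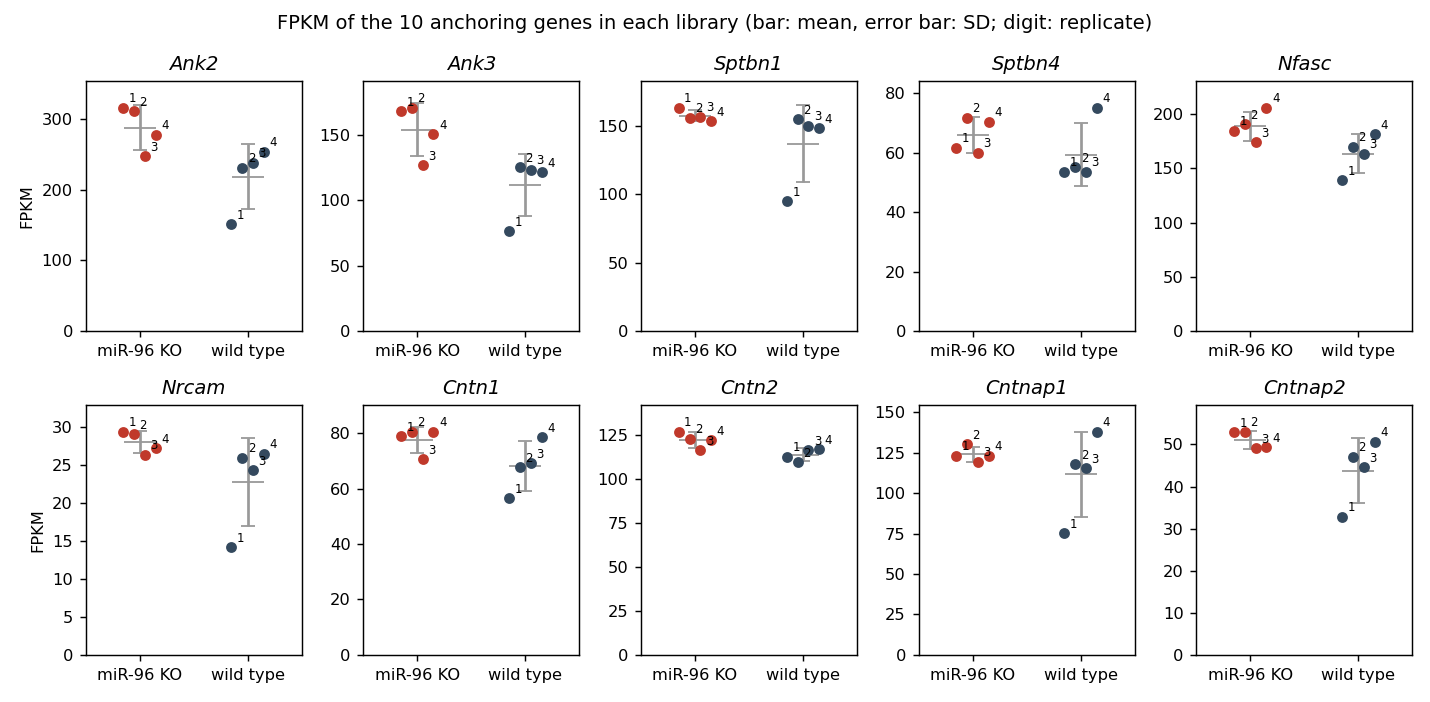
FPKM (vertical axes, from 0) of each of the 10 genes in the 4 knock-out libraries (red, left) and the 4 wild-type libraries (dark, right); digits are replicate numbers, horizontal bars means and error bars SD. Wild type replicate 1 is the lowest wild-type library in 8 of the 10 panels (Sptbn4 and Cntn2 are the exceptions), and in Ank3 all knock-out points lie above all wild-type points.

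Ank3, whose protein ankyrin-G organises the initial segment (chromosome 10, 69533772 to 70027438, plus strand), was at 168, 171, 127 and 150 FPKM in knock-out replicates 1 to 4 and at 76.2, 125, 123 and 121 FPKM in wild type replicates 1 to 4. The groups did not overlap, but knock-out replicate 3 lay just above the highest wild-type library (126.8 FPKM against 125.2 in wild type replicate 2). The log2 fold change was 0.48 (SE 0.17, limma adjusted p = 0.62), from 154 ± 20.2 FPKM in knock-out and 112 ± 23.6 in wild type, and the exact two-sided permutation p was 0.0286, the smallest that 4 against 4 libraries can give. Without wild type replicate 1 the log2 fold change was 0.31 (SE 0.10).

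Ank2, which encodes ankyrin-B (chromosome 3, 126921612 to 127499350, minus strand), was at 315, 311, 247 and 277 FPKM in knock-out replicates 1 to 4 and at 151, 231, 238 and 253 FPKM in wild type replicates 1 to 4. Knock-out replicate 3 lay below wild type replicate 4, so the groups overlapped. The log2 fold change was 0.42 (SE 0.16, limma adjusted p = 0.62), or 0.25 without wild type replicate 1. The exact permutation p was 0.0571, as it also was for Sptbn1, Nfasc, Nrcam, Cntn1 and Cntn2. In the same test it was 0.0857 for Cntnap2, 0.229 for Sptbn4 and 0.457 for Cntnap1. Both ankyrin genes also have giant-exon forms in neurons, and these gene-level values do not part one form from another: the annotation holds 27 transcripts of Ank2 and 47 of Ank3.

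The spectrins differed less. Sptbn1, beta-II spectrin (chromosome 11, 30099395 to 30268175, minus strand), was at 163, 156, 157 and 153 FPKM in knock-out and 95.1, 155, 150 and 148 FPKM in wild type, each in the order of replicates 1 to 4. Much of its difference rested on 1 library: the log2 fold change was 0.22 (SE 0.15) with all libraries and 0.058 (SE 0.059) without wild type replicate 1, and its knock-out libraries were the least spread of the set, with a coefficient of variation of 2.61%. For Sptbn4, beta-IV spectrin of initial segments and nodes (chromosome 7, 27356383 to 27447686, minus strand), knock-out libraries held 61.7, 71.7, 60.0 and 70.4 FPKM and wild-type libraries 53.6, 55.1, 53.6 and 75.1 FPKM. Wild type replicate 4 was here the highest of all 8, no knock-out library exceeded it, and the log2 fold change was 0.16 (SE 0.12), or 0.28 without that replicate and 0.12 without wild type replicate 1.

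The adhesion molecules that ankyrin-G binds also had higher means in knock-out. Nfasc (chromosome 1, 132564690 to 132741797, minus strand) encodes the neurofascin of nodes and initial segments and also the glial form at paranodes, which gene-level values add together. Its levels were 185, 191, 174 and 206 FPKM in knock-out and 139, 170, 163 and 182 FPKM in wild type, which gave a log2 difference of 0.21 (SE 0.10, adjusted p = 0.62 in limma), or 0.14 without wild type replicate 1. Nrcam (chromosome 12, 44328885 to 44601846, plus strand), an adhesion molecule of nodes, had 29.4, 29.0, 26.3 and 27.2 FPKM in knock-out and 14.2, 25.9, 24.3 and 26.4 FPKM in wild type. Its log2 fold change was 0.33 (SE 0.18), and 0.13 (SE 0.071) without wild type replicate 1, which held 55.4% of the mean of the other wild-type libraries, the lowest share among the 10 genes. Nrcam carries the miR-96 match printed above next to its stop codon.

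At the paranode, Cntnap1 (chromosome 11, 101170523 to 101190724, plus strand) was at 123, 130, 119 and 123 FPKM in knock-out and 75.2, 118, 115 and 138 FPKM in wild type. The log2 fold change of 0.18 (SE 0.16, 95% interval -0.18 to 0.54) became 0.0058 (95% interval -0.17 to 0.18) once wild type replicate 1 was left out. Its partner Cntn1 (chromosome 15, 92051165 to 92341967, plus strand), the other gene with a match, had 78.9, 80.6, 70.5 and 80.5 FPKM in knock-out and 56.5, 67.8, 69.1 and 78.6 FPKM in wild type. In Cntn1 the groups overlapped by knock-out replicate 3 alone, and the log2 fold change was 0.20 (SE 0.11), or 0.11 without wild type replicate 1.

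At the juxtaparanode, Cntn2 (chromosome 1, 132509427 to 132543256, minus strand) was the steadiest gene of the set. It had 127, 123, 116 and 122 FPKM in knock-out and 113, 109, 116 and 117 FPKM in wild type, and wild type replicate 1 lay within the range of the other wild-type libraries. The log2 fold change was the smallest of the 10, 0.10 (SE 0.073), and hardly moved without that replicate (0.095). Cntnap2 (chromosome 6, 45059357 to 47304213, plus strand), which encodes Caspr2, spans 2244.9 kb, the widest locus of the set. Its levels were 52.9, 53.1, 49.1 and 49.3 FPKM in knock-out and 32.9, 47.1, 44.6 and 50.6 FPKM in wild type, a log2 fold change of 0.23 (SE 0.13), or 0.11 without wild type replicate 1.

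The spread within a genotype was itself uneven. The coefficient of variation (SD over mean) ran from 2.61% to 13.1% in knock-out and from 3.14% to 25.4% in wild type, and the SD was larger in wild type for 9 of the 10 genes (Cntn2 was the exception). Relative to the mean of all 8 libraries on the log2 scale, the median of the 10 genes was 0.14, 0.17, -0.0067 and 0.14 in knock-out replicates 1 to 4 and -0.56, -0.044, -0.061 and 0.069 in wild type replicates 1 to 4. Knock-out replicate 3, the lowest knock-out library in each gene but Sptbn1, thus stood near wild type replicates 2 and 3, and wild type replicate 4 between the groups.

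**Figure D2:**
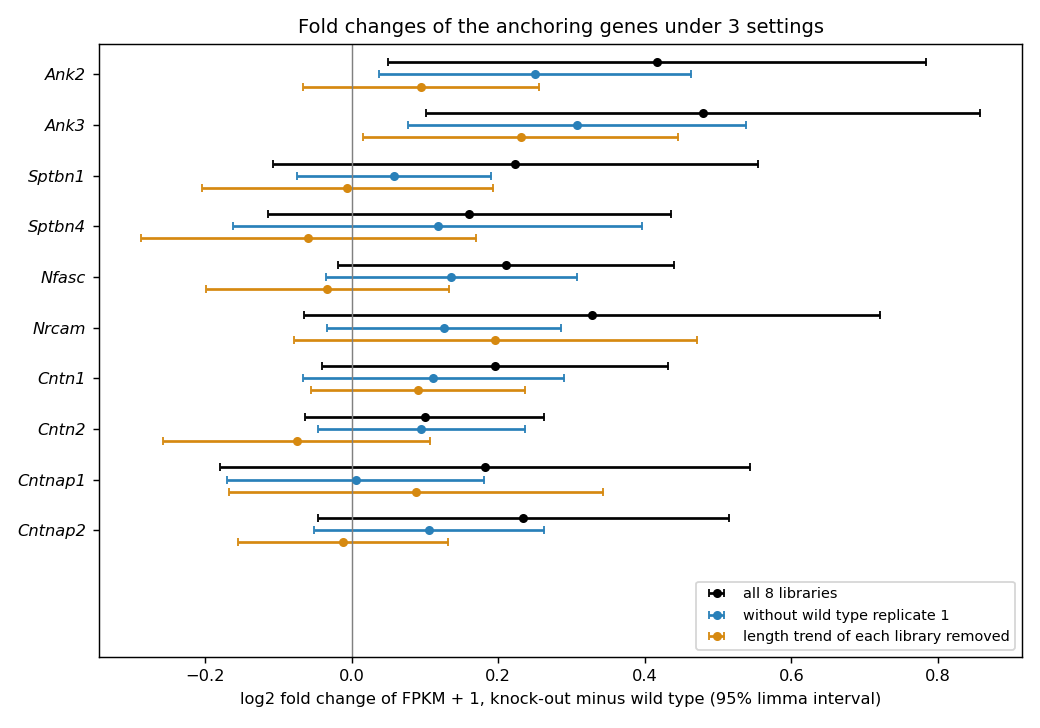
Log2 fold change of each gene (horizontal axis, knock-out minus wild type) with its 95% limma interval, for all 8 libraries (black), without wild type replicate 1 (blue) and with the trend of each library against the longest transcript removed (orange). With all 8 libraries every point lies above 0; with the length trend removed 5 points lie below 0 and the interval of Ank3 alone stays above it.

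By longest annotated transcript the 10 genes are all long, although their median annotated transcripts run from 1107 nt (Cntnap2) to 5085 nt (Cntn1). Their longest annotated transcripts run from 5440 nt (Cntnap1) to 14305 nt (Ank2), between the 80.2 and the 99.5 percentile of tested protein-coding genes, whose median is 3472 nt. Across all tested protein-coding genes the fold change moved with transcript length. The median log2 fold change was -0.15 in genes under 2000 nt, -0.032 from 2000 to 4000 nt, 0.067 from 4000 to 6000 nt, 0.16 from 6000 to 8000 nt and 0.26 from 8000 nt up. In that longest class, 823 genes that include 6 of the 10 (Ank2, Ank3, Sptbn1, Sptbn4, Nfasc and Cntnap2), 96.5% had a higher mean in knock-out and 22.1% were higher at unadjusted p under 0.05. Without wild type replicate 1 the class median was 0.15 and 91.6% were higher. Ank3 exceeded 91.0% of its length class and Ank2 85.9%, while Sptbn4, Nfasc, Sptbn1 and Cntnap2 exceeded 25.2%, 38.0%, 41.1% and 43.9%. Among the shorter members, Nrcam exceeded 86.9% of its class, Cntn1 80.6%, Cntnap1 78.6% and Cntn2 32.1%. These places moved without wild type replicate 1. Ank3 then exceeded 85.1% of its class, Cntn1 76.0%, Ank2 74.8%, Nrcam 66.7% and Cntn2 58.1%. The rest lay below their class median, with Cntnap1 and Nfasc above 46.3% and 46.1% of their classes, Sptbn4 above 40.0%, Cntnap2 above 35.5% and Sptbn1 above 21.1%.

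The libraries differed in this trend. Between genes under 2000 nt and those of at least 8000 nt, the median deviation from the 8-library mean went up with length in knock-out replicates 1, 2 and 4 and also in wild type replicate 4 (-0.125 under 2000 nt), and down in wild type replicates 1, 2 and 3, most steeply in replicate 1 (0.34 under 2000 nt). In knock-out replicate 3 it stayed between 0.0165 and 0.0322 in all 5 classes. Genes of at least 8000 nt had a median deviation from the 8-library mean of 0.23, 0.17, 0.024 and 0.091 in knock-out replicates 1 to 4 and of -0.42, -0.077, -0.041 and 0.069 in wild type replicates 1 to 4, with wild type replicate 1 lowest and knock-out replicates 1 and 2 highest, as for the 10 genes. With the trend of each library against the longest transcript removed, the median log2 fold change of the 10 was 0.041, with 5 higher and 5 lower in knock-out. Ank3 was then at 0.23 (SE 0.096, limma adjusted p = 0.755), Nrcam at 0.20 (SE 0.12) and Ank2 at 0.095 (SE 0.072), while Sptbn1 (-0.0058), Cntnap2 (-0.012), Nfasc (-0.033), Sptbn4 (-0.059) and Cntn2 (-0.075) had slightly lower values in knock-out. The choice of length mattered: measured against the median transcript of each gene, a choice made after seeing the data, the median of the 10 was 0.12 and all 10 stayed higher in knock-out, with Ank3 at 0.39 and Ank2 at 0.37.

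**Figure D3:**
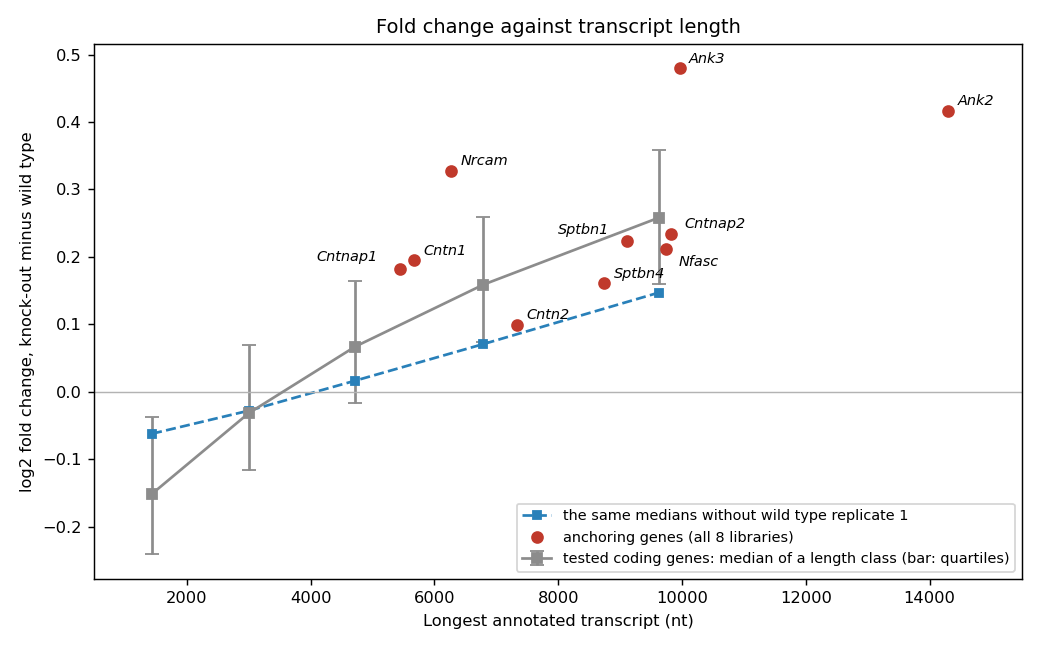
Log2 fold change (vertical axis, knock-out minus wild type) against the longest annotated transcript in nt (horizontal axis). Grey squares are medians of tested protein-coding genes in 5 length classes with quartiles as bars, blue squares the same without wild type replicate 1, and red points the 10 genes, at the values with all 8 libraries. Of these Ank3, Ank2, Nrcam, Cntn1 and Cntnap1 lie above the upper quartile of their class, as Ank3 and Cntn1 alone do without wild type replicate 1.

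Proteins of this system work in pairs, and a ratio within a library does not depend on that library's overall scale. The ratios below are described without a test. Cntnap1 to Cntn1, the paranodal pair, was 1.60 ± 0.0706 in knock-out and 1.62 ± 0.199 in wild type (SD, n = 4 each), with overlapping ranges and a log2 difference of -0.014, or -0.11 without wild type replicate 1. For the juxtaparanodal pair, Cntnap2 to Cntn2, the ratio was 0.419 ± 0.0115 in knock-out and 0.385 ± 0.0661 in wild type, where replicate 1 held 0.292 and the others 0.383 to 0.433. The log2 difference was 0.14, or 0.012 without replicate 1. Nrcam to Nfasc was likewise 0.149 ± 0.0115 in knock-out and 0.137 ± 0.0237 in wild type, a log2 difference of 0.13, or -0.0057 without wild type replicate 1.

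The scaffold pairs showed somewhat lower ratios of spectrin to ankyrin in knock-out. Sptbn4 to Ank3 was 0.368, 0.420, 0.473 and 0.468 in knock-out replicates 1 to 4 and 0.703, 0.440, 0.434 and 0.619 in wild type replicates 1 to 4. Sptbn1 to Ank2 was 0.517, 0.502, 0.634 and 0.553 in knock-out and 0.630, 0.671, 0.631 and 0.584 in wild type. In both pairs the ranges overlapped, through wild type replicates 2 and 3 in the first and knock-out replicate 3 in the second. The log2 difference was -0.32 for Sptbn4 to Ank3 and -0.19 for Sptbn1 to Ank2, and -0.19 for both without wild type replicate 1. By longest annotated transcript the ankyrin is the longer in each pair (9963 nt for Ank3 and 8747 nt for Sptbn4, 14305 nt for Ank2 and 9107 nt for Sptbn1). By median annotated transcript it is the shorter (3557 nt for Ank3 and 4740 nt for Sptbn4, 2491 nt for Ank2 and 4933 nt for Sptbn1). The part of the length trend in these ratios was not tested.

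**Figure D4:**
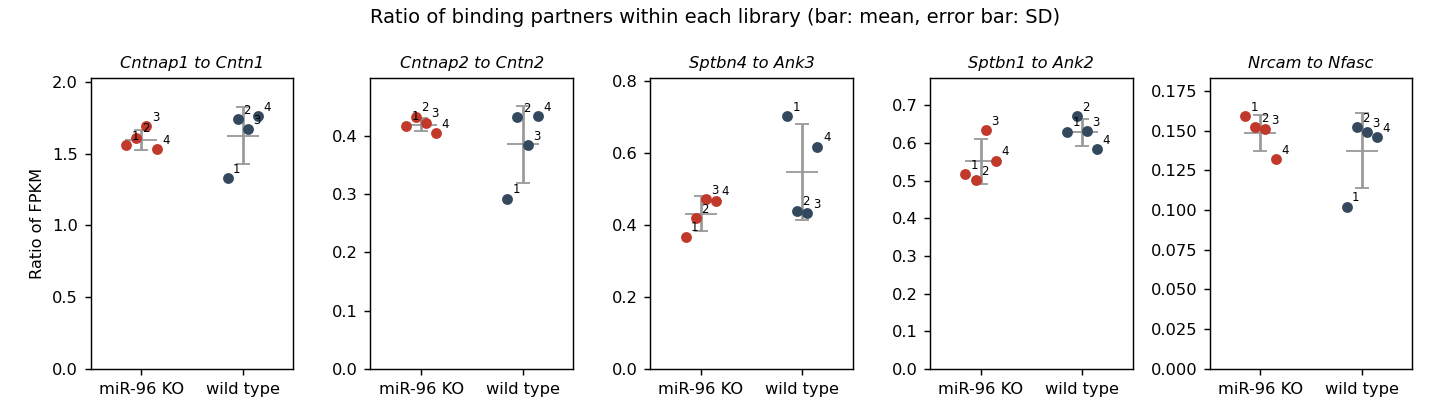
Ratio of FPKM of 5 pairs of binding partners (vertical axes, from 0) in the 4 knock-out libraries (red, left) and the 4 wild-type libraries (dark, right), with digits for replicates, bars for means and error bars for SD. The groups overlap in every pair, and wild type replicate 1 is the extreme wild-type library in each pair except Sptbn1 to Ank2.

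Other genes of the initial segment and node were read from lists chosen with earlier results of these data known. Of all genes tested 53.1% were higher in mean in knock-out, and of coding genes of 4000 to 6000 nt 71.0%. Without wild type replicate 1 these shares were 50.4% and 55.9%. Relatives of the 10 (other ankyrins, spectrins, L1 family adhesion molecules, contactins and Caspr genes) were higher in mean in knock-out in 15 of 15 tested, with a median log2 fold change of 0.27, or 12 of 15 and 0.11 without wild type replicate 1. None passed the adjusted threshold in limma and 4 had unadjusted p under 0.05, all higher in knock-out. The share higher at that p was 3.69% of all genes tested. It was 2.26% of coding genes of 4000 to 6000 nt and 22.1% of those of at least 8000 nt. The median longest transcript of these relatives was 5294 nt. In the rest of this account of related genes, the pair of values in brackets is the log2 fold change with all libraries, then without wild type replicate 1. Cntnap5a was at 4.23 ± 0.429 FPKM in knock-out and 3.02 ± 0.606 in wild type (0.39, then 0.31), Cntnap5b at 3.10 ± 0.830 in knock-out and 1.53 ± 0.716 in wild type (0.72, then 0.48), and Cntnap5c at 1.83 ± 0.441 in knock-out and 0.867 ± 0.563 in wild type (0.64, then 0.44). These are related copies that could share reads, so their separate values are uncertain. The last, the L1 family gene Chl1, named after its values were seen, was at 31.8 ± 2.11 FPKM in knock-out and 23.8 ± 6.89 in wild type (0.44, then 0.34).

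The anchored channels were higher in mean in 7 of 9, with a median log2 fold change of 0.32, or 0.16 without wild type replicate 1. None passed the adjusted threshold in limma and 3 had unadjusted p under 0.05, all higher in knock-out, against the same 3.69% and 22.1%. Kcnq3, a subunit of the M-current channel held by ankyrin-G, was at 22.4 ± 3.77 FPKM in knock-out and 15.7 ± 3.24 in wild type (0.49, then 0.39). The sodium channel gene Scn2a was at 30.3 ± 2.73 FPKM in knock-out and 22.2 ± 6.36 in wild type (0.47, then 0.32), and Kcna2, a Kv1 channel of the juxtaparanode, at 109 ± 10.1 FPKM in knock-out and 88.0 ± 16.9 in wild type (0.32, then 0.18). The channel transcripts are long as well, with a median of 8386 nt, and 96.5% of coding genes of at least 8000 nt were higher in mean. The share over all genes tested was 53.1%.

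Among nodal matrix and secreted proteins 9 of 11 were higher in mean in knock-out (median 0.10, or 0.077 without wild type replicate 1). Of all genes tested 53.1% were higher in mean, and of coding genes of 4000 to 6000 nt 71.0%. The median longest transcript of the list was 5715 nt. Vcan and Tnr, 2 of the 11, were higher at unadjusted p under 0.05, against 3.69% of all genes tested and 2.26% of that length class. Vcan, which encodes versican, was at 7.49 ± 1.13 FPKM in knock-out and 5.36 ± 0.637 in wild type (0.41, then 0.36). Tnr, tenascin-R, was at 34.3 ± 4.67 FPKM in knock-out and 22.9 ± 7.91 in wild type (0.63, then 0.335), where replicate 1 held 11.2 FPKM and the next lowest 25.2 FPKM. Hapln1, a link protein of hyaluronan matrix, was at 3.85 ± 1.04 FPKM in knock-out and 3.17 ± 0.909 in wild type (0.22, then 0.26).

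Juxtaparanodal and paranodal scaffold genes were higher in 8 of 9 (median 0.13), with none at unadjusted p under 0.05, and in 5 of 9 (median 0.0020) without wild type replicate 1. Their median longest transcript was 6326 nt, and 88.9% of coding genes of 6000 to 8000 nt were higher in mean with all libraries. Without wild type replicate 1 that share was 74.1%. Over all genes tested it was 53.1% with all libraries and 50.4% without that replicate. Adam22, a receptor of Lgi proteins, was at 89.5 ± 7.47 FPKM in knock-out and 76.2 ± 11.6 in wild type (0.24, then 0.15). The scaffold gene Dlg2, which encodes PSD-93, was at 75.0 ± 2.83 FPKM in knock-out and 63.9 ± 17.4 in wild type (0.27, then 0.067). Epb41l2, a protein of the band 4.1 family, was at 27.4 ± 1.65 FPKM in knock-out and 24.8 ± 2.49 in wild type (0.14, then 0.071).

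The remaining initial segment genes went either way, with 5 of 10 higher in knock-out, against 53.1% of all genes tested. Their median was -0.022, or -0.034 without wild type replicate 1, and none had unadjusted p under 0.05. In 2 of them, Mapre3 and Csnk2a2, each knock-out library lay below each wild-type library, a separation seen in one direction or the other in 3.03% of genes tested. Mapre3, a microtubule end-binding protein, was at 122 ± 7.66 FPKM in knock-out and 139 ± 12.6 in wild type (-0.19, then -0.13). Csnk2b, the regulatory subunit of the kinase CK2, was at 85.4 ± 13.0 FPKM in knock-out and 102 ± 16.2 in wild type (-0.25, then -0.16), with overlapping libraries. Csnk2a2, a catalytic subunit of that kinase, was at 25.3 ± 0.252 FPKM in knock-out and 27.5 ± 1.31 in wild type (-0.12, then -0.094). No gene of these last 3 lists passed the adjusted threshold in limma.

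**Figure D5:**
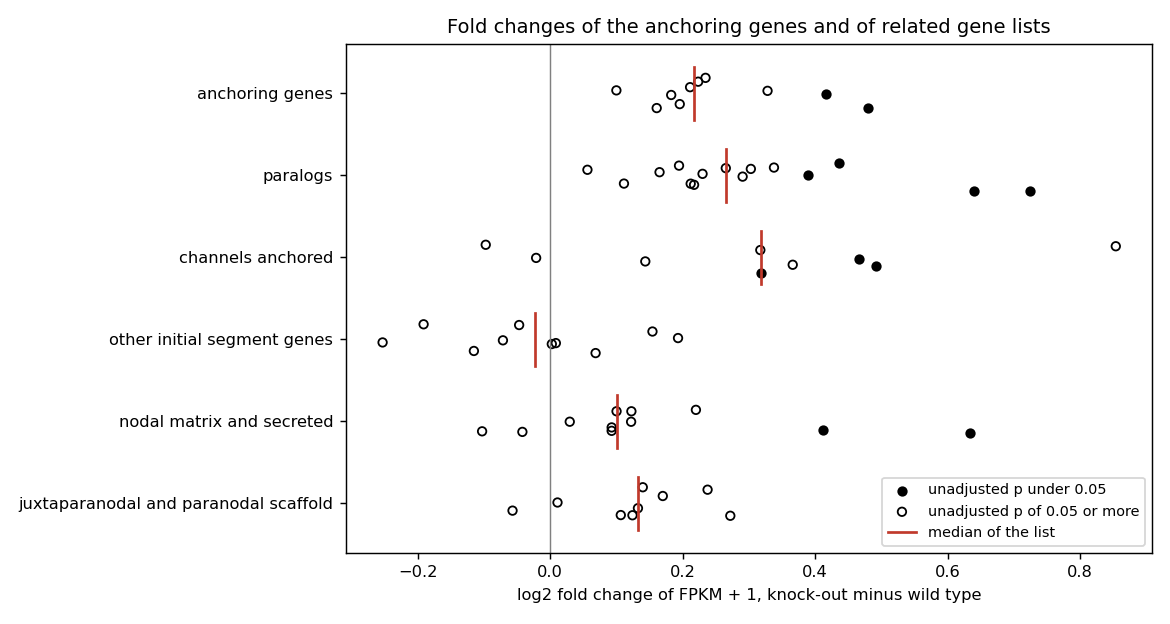
Log2 fold change (horizontal axis, knock-out minus wild type) of the 10 anchoring genes and of each tested gene in 5 related lists; filled points have unadjusted p under 0.05 and red lines are medians. The medians are 0.22 for the anchoring genes, 0.27 for their relatives and 0.32 for anchored channels, against -0.022 for the remaining initial segment genes.

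Summed marker levels overlapped between the genotypes for each cell type given here except liver. Of all genes tested 53.1% were higher in mean in knock-out, and 50.4% without wild type replicate 1. Dorsal horn markers were higher in 4 of 10 (median log2 fold change -0.046), or 2 of 10 without that replicate (median -0.066). Neuronal markers were higher in mean in 4 of 8 (median log2 fold change -0.0042, or -0.010 without wild type replicate 1), with the neuronal nuclear marker Rbfox3 at 169 ± 8.13 FPKM in knock-out and 166 ± 13.8 in wild type. Mature oligodendrocyte markers were higher in 3 of 10 (median -0.064), or 5 of 10 without that replicate (median -0.011), with Mbp at 5541 ± 409 FPKM in knock-out and 6536 ± 1560 in wild type. Motor and cholinergic markers were higher in 6 of 6 tested (median 0.147), or 2 of 6 without that replicate (median -0.0283). They summed to 35.1 to 106 FPKM in knock-out and 26.3 to 92.5 in wild type. Astrocyte markers were higher in 5 of 6 (median 0.0675), or 4 without that replicate (median 0.0186). They summed to 1886 to 2120 FPKM in knock-out and 1698 to 2051 in wild type. Markers of oligodendrocyte precursors were higher in 4 of 5 (median 0.129), or 3 without it (median 0.0443). Their sums were 137 to 169 FPKM in knock-out and 159 to 164 in wild type. Microglia markers were higher in 2 of 5 (median -0.0279), or 4 without it (median 0.065). Here the sums were 55.6 to 62.4 FPKM in knock-out and 49.4 to 70.9 in wild type. Markers of liver were higher in knock-out with and without that replicate (median 1.52, then 1.54). All 5 had unadjusted p under 0.05 in limma with all libraries (3.69% of genes tested), and none passed the adjusted threshold. They summed to 25.1 to 48.7 FPKM in knock-out against 1.28 to 9.95 in wild type. Alb was at 11.7 to 33.0 FPKM in knock-out and 0.0301 to 5.94 in wild type. Blood markers were higher in 0 of 4 tested (median -0.37), or 3 without wild type replicate 1 (median 0.293). They summed to 17.8 to 39.3 FPKM in knock-out and 5.96 to 199 in wild type, the highest in wild type replicate 1. No marker was at 0 in all libraries. The part of these cell sources in the values of the anchoring genes was not tested.

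Overlap with other genes was small. Exon bases shared with another annotated gene made up at most 3.97% of a member, in Cntnap1, where they belong to Plekhh3 on the opposite strand (14.2 FPKM), and whether strand was used in counting is not given in the sources used here.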

How the data were processed

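Per the labels' protocols, libraries were prepared from polyA RNA with NEBNext Ultra reagents. The submitters' processing notes name HISAT2, SAMtools and Cufflinks, and how they were run is not given in the sources used here. Values were deposited by the authors as FPKM for each gene, 1 file per library. Although mm8 is the build in those notes, the locus in the files matched the GENCODE annotation of GRCm38 for 45128 genes (91.5% of those with a symbol), including 8 of the 10 members, so coordinates are on GRCm38, as the files give them. From the steps that single fragments leave in low FPKM, depth was estimated at 31900000 to 43100000 fragments per library, assuming fragments of 200 nt.

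The test was limma 3.58.1 in R 4.3.3 on log2(FPKM + 1), two-sided, with eBayes set to trend and robust, a scale that understates changes of low genes, over 15061 genes with a mean of at least 1 FPKM, with Benjamini-Hochberg adjustment over all of them. The script was tested on simulated data with independent noise of equal size in each library. Those data held neither an outlying library nor a length trend, so the fit was not tested under either. Exact permutation tests used SciPy 1.17.1. Transcript and 3′ region lengths came from GENCODE. Trends with length were removed by lowess (span 0.3).

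The members and lists were chosen with earlier results of these data known. Named are all members and, per related list, the 3 genes of lowest p, beside single markers (Chl1 was added after its values were seen); 1 marker and the list that holds it are not reported here. Alternatives were another pseudocount (0.1), other filters (none, or 5 FPKM), median-ratio and quantile scaling, library weights, a replicate block, limma without trend, removal of the length trend, and each library left out. The labels do not say how replicates were obtained beyond the count of mice, and each p-value reflects variation from library to library that can include technical variation.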

Additional observations from a re-analysis of the deposited data

Results flagged for a closer look

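In 7 of 60 groups of 4 libraries checked (members, named related genes and pair ratios), 1 library lay far from the other 3 by Dixon's criterion, which chance meets in about 1 of 20 groups. Wild type replicate 1 was the low library for Ank3 (76.2 FPKM, next lowest 121), Sptbn1 (95.1 FPKM, next 148), Tnr (11.2 FPKM, next 25.2), Cntnap5b (0.469 FPKM, next 1.77) and the ratio of Nrcam to Nfasc (0.102, next 0.146). Wild type replicate 4 was the high library for Sptbn4 (75.1 FPKM, next 55.1). Knock-out replicate 3 was the low library for Vcan (5.82 FPKM, next 7.89).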

How the results depend on the processing

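The direction of all 10 members held under each scaling, filter, pseudocount and left-out library tried. Under removal of the length trend it depended on the length used. Against the median transcript, a choice made after seeing the data, all 10 stayed higher in knock-out (median 0.12). With the trend against the longest transcript removed, Sptbn1 was at -0.0058, Sptbn4 at -0.059, Nfasc at -0.033, Cntn2 at -0.075 and Cntnap2 at -0.012. In that fit 1 member had unadjusted p under 0.05, against 4.61% of genes tested. With wild type replicate 1 also left out, a choice made after seeing the data, the member median was -0.0046. In that fit 0 members had unadjusted p under 0.05, against 498 of 15023 genes tested. Sptbn1 (-0.076), Sptbn4 (-0.0099), Nfasc (-0.0097), Cntnap1 (-0.036) and Cntnap2 (-0.041) were then lower in knock-out. With estimated library weights 1627 genes passed the adjusted threshold (10.8% of those tested), among them 4 members, Ank2, Ank3, Sptbn4 and Nfasc. Unadjusted p was under 0.05 in 7 members, against 33.3% of genes tested. These weights gave wild type replicate 3 a weight of 5.09 and wild type replicate 1 a weight of 0.153. Leaving out 1 library gave 0 to 1 genes past the threshold, 0 members past it, and 0 (without knock-out replicate 2) to 6 (without wild type replicate 4) members at unadjusted p under 0.05, with 1 without knock-out replicate 1 or 4. The member median then ran from 0.11 (without wild type replicate 1) to 0.29 (without wild type replicate 4). The labels state no pairing of libraries by replicate number. Correlations of same-numbered deviations ran from -0.108 to 0.144, which does not exclude a pairing. With the replicate block 2 members and 790 of the 15061 genes tested had unadjusted p under 0.05 in limma. Ank2 passed unadjusted p under 0.05 in limma but not in the exact permutation test (0.0571). The causes were not tested. Transcript forms could not be told apart, and 4 libraries per genotype limit the precision.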
